A study of Rattus norvegicus with 2 samples.

Results

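The genes described are the receptors, ligands and targets of Notch signalling in lens epithelial cells (LECs) of the Shumiya cataract rat (SCR). The list holds 10 genes, namely the receptors *Notch1*, *Notch2* and *Notch3*, the ligands *Jag1*, *Jag2*, *Dll1* and *Dner*, the DNA-binding factor *Rbpj* and the targets *Hes1* and *Hey1*. A gene was measured where a probe set of the array names it alone in the platform annotation. That held for 9 of the 10, out of 18166 genes measured in all, and each of the 9 had 1 probe set. The probe set of *Rbpj* also names *Rbpjl2*, so *Rbpj* has no value of its own.

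Notch signalling passes between cells that touch. A ligand of the Jagged or Delta type on 1 cell binds a Notch receptor on its neighbour, proteases then free the intracellular part of the receptor, and this fragment joins RBPJ and Mastermind in the nucleus to switch on genes such as *Hes1* and *Hey1*, which encode repressors. In the mouse lens, Jag1, Notch2 and Rbpj are known to keep epithelial cells dividing and to be needed for normal fiber cell differentiation.

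The study compared Cat- and Cat+ SCRs at 5 weeks of age. The Cat- sample came from rats with the Lss s/Lss s genotype, which keep clear lenses, and the Cat+ sample from rats with Lss s/Lss l, which develop opacity. By the study's account, Cat+ lenses already had mild opacity, posterior and cortical, at this age. Both are of the same strain, whose cataract has been linked to alleles of *Lss* and of *Fdft1*, 2 genes of cholesterol synthesis, and the *Fdft1* genotype of each sample is not given in the sources used here. Lens capsules with attached LECs were the material, the RNA of 2 eyes made each sample (whether of 1 animal is not stated), and each sample was hybridised to 1 GeneChip Rat Gene 2.0 ST array. Regular or experimental chow was fed, and which sample had which is not given in the sources used here.

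With 1 array per group there was no replicate, so no value has an error between animals, no test was run and no p-value is given. Values are the authors' normalized log2 signals, where a step of 1 is a factor of 2, and the fold change is the Cat+ signal over the Cat- signal. The study's size rule, a fold change under 0.5 or over 2, was used as a description. As a technical yardstick, the log2 difference Cat+ minus Cat- was taken for each probe set of the 291 genes that have several. Within a gene these differences had a pooled SD of 0.17, a factor of 1.13. This probe set SD covers probe sets and not animals.

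The array medians were 5.67 (Cat-) and 5.69 (Cat+), and over 18166 genes the median log2 difference was 0.00 (fold change 0.997). The tissue label was read from markers. All 9 measured lens epithelium markers had signals above the array median in both samples, with fold changes from 0.838 to 1.14. Lens fiber markers were also present in both samples: *Mip*, which encodes a water channel of fibers, stood at 11.57 (Cat-) and 9.26 (Cat+) on the log2 scale. Some markers of other eye tissues were bright too. The rod and cone marker *Gnat1* stood at 9.35 (Cat-) and 9.95 (Cat+), and the pigment cell marker *Tyrp1* at 9.80 and 9.99. Each was the brightest measured gene of its list. Of 8 measured rod and cone markers, 2 were below the array medians in both samples, *Nrl* (5.44 and 5.45) and *Arr3* (5.23 and 5.38). The epithelium marker *Foxe3* was at 9.53 and 9.72, so the markers do not show that the samples held lens cells alone. Signal is per array and not per cell, so fewer cells of a type and less RNA per cell cannot be told apart for any gene below.

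Of the 9 Notch genes, *Dner* alone passed the size rule. It was lower in Cat+, with a fold change of 0.489, whereas 0.308% of all genes had a fold change under 0.5. No Notch gene had a fold change over 2, a size reached by 0.0055% of all genes. In all, 6 of the 9 were lower in Cat+ and 3 higher, against 51.2% of all genes lower and 48.8% higher. The median log2 difference of the 9 genes was -0.04, close to that of all genes. For 6 of the 9 the difference was smaller than the probe set SD, as it was for 12431 of the 18166 genes.

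**Figure D1:**
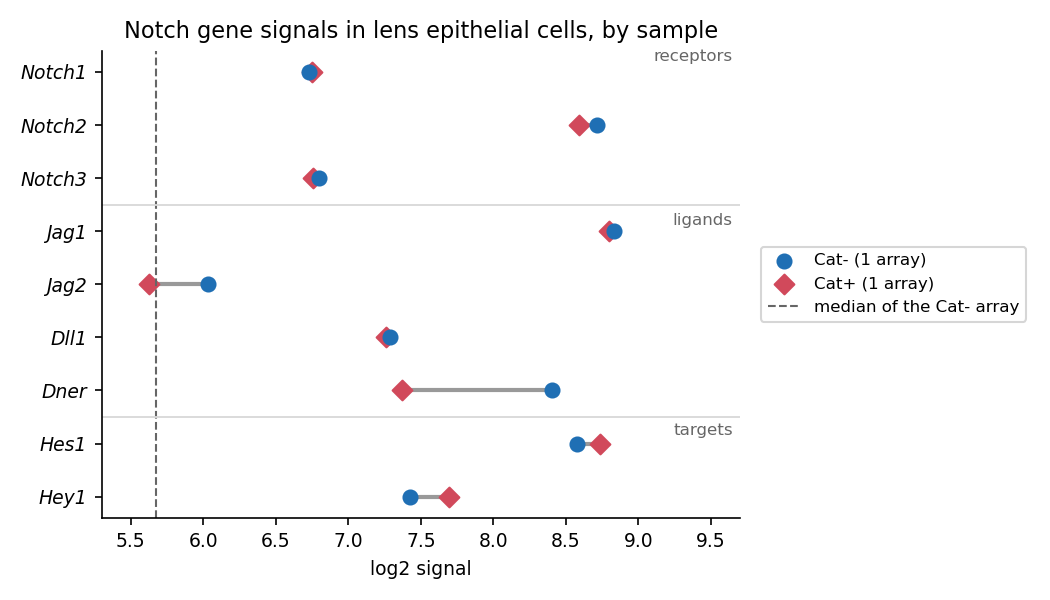
Log2 signal (x axis) of each Notch gene measured (y axis) in the Cat- sample (circle) and the Cat+ sample (diamond), 1 array each with no error between animals; the dashed line marks the Cat- array median of 5.67. *Dner* goes from 8.40 to 7.37 and *Jag2* from 6.03 to 5.62, while the signals of each of the other 7 genes differ by 0.27 or less.

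Among the receptors, *Notch2*, a receptor with a known role in the mouse lens epithelium, read 8.71 (Cat-) and 8.59 (Cat+) on the log2 scale with probe set 17741181, which is a fold change of 0.921. *Notch1*, the receptor best known from lymphocyte and neural development, stood at 6.73 (Cat-) and 6.75 (Cat+) on the log2 scale with probe set 17770675, or a fold change of 1.01. *Notch3*, a receptor typical of vascular smooth muscle, had log2 signals of 6.79 (Cat-) and 6.75 (Cat+) from probe set 17834131, or a fold change of 0.973. The 3 receptors thus differed between the samples by less than the probe set SD. *Notch4*, the remaining receptor of the family and one found mostly in endothelium, stood at 6.24 (Cat-) and 6.50 (Cat+) on the log2 scale, or a fold change of 1.19. Smooth muscle and pericyte markers had fold changes from 0.909 to 1.09 in 5 of 7 listed genes that were measured. Endothelium markers had fold changes from 0.822 to 1.09, also in 5 of 7 genes.

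All 4 ligands were lower in Cat+, by very unequal amounts and for *Jag1* and *Dll1* by less than the probe set SD. *Dner*, a transmembrane protein with EGF-like repeats that is abundant in neurons and has been described as a noncanonical Notch ligand, read 8.40 (Cat-) and 7.37 (Cat+) on the log2 scale with probe set 17866056. The difference of -1.03 was the 55th lowest of 18166 genes and 5.97 times the probe set SD. Among the 500 genes nearest to it in mean signal, 90% of the differences lay between -0.44 and 0.31, so *Dner* stood well outside that range. Its fold change lies close to the threshold of 0.5. After quantile normalization of the 2 arrays it was 0.501, and no Notch gene then passed the size rule.

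*Jag2*, a Jagged ligand that binds the same receptors as Jag1, read 6.03 (Cat-) and 5.62 (Cat+) on the log2 scale with probe set 17824601, which is a fold change of 0.753. The difference of -0.41 was the 493rd lowest of all genes, and it lay outside the range of -0.32 to 0.28 that held 90% of the 500 genes of nearest signal. In Cat+ the probe set was below the array median of 5.69, and the table has no detection calls. *Jag1*, the ligand found at the edge of the fiber cells in the mouse lens, had log2 signals of 8.83 (Cat-) and 8.79 (Cat+) from probe set 17777661, or a fold change of 0.975. *Dll1*, a Delta-type ligand, stood at 7.29 (Cat-) and 7.26 (Cat+) on the log2 scale with probe set 17628915, or a fold change of 0.979. *Jag1* and *Dll1* were therefore nearly level between the samples. On the same yardstick, the gap between the log2 differences of 2 probe sets has an SD of 0.24. The steps from *Dner* to *Jag2* (0.62) and from *Jag2* to *Notch2* (0.29) were larger than that in the order of differences, and every later step was smaller. Steps between sorted neighbours are small by construction, so they do not show that the remaining genes were alike. Those genes ran from -0.12 for *Notch2* to 0.27 for *Hey1*.

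**Figure D2:**
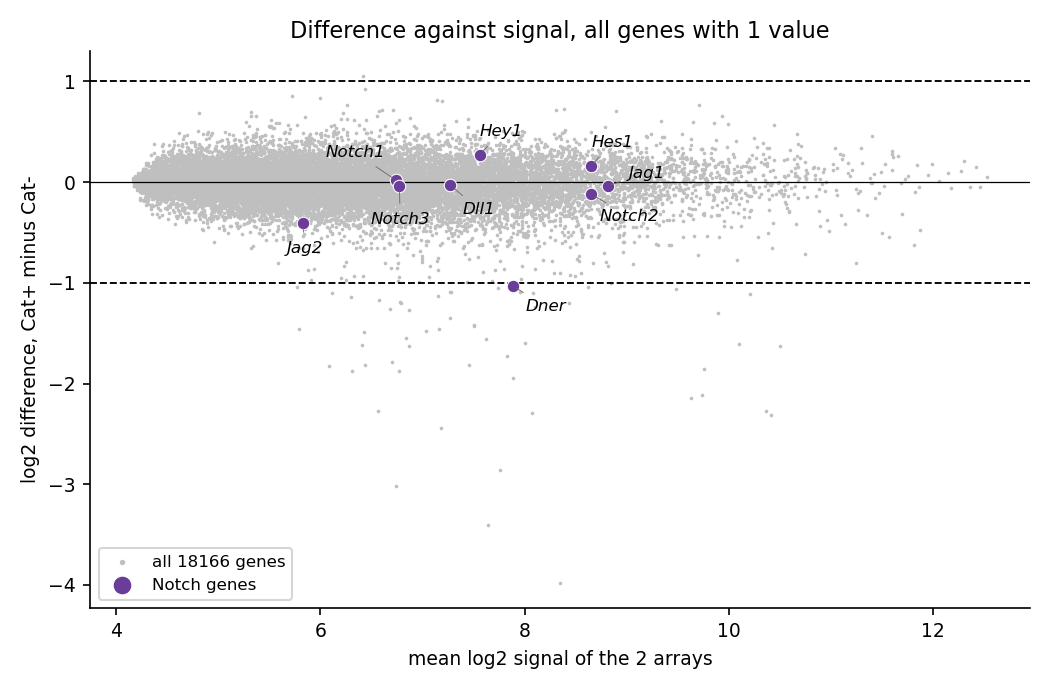
Log2 difference Cat+ minus Cat- (y axis) against the mean log2 signal of the 2 arrays (x axis) for 18166 genes (grey) and the 9 Notch genes (purple); dashed lines mark a 2-fold difference each way. *Dner*, at -1.03, lies just below the lower line and *Jag2*, at -0.41, at the lower edge of the grey cloud, while the other 7 lie inside it.

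Both targets were higher in Cat+ by small amounts. *Hes1*, a repressor of differentiation genes, read 8.57 (Cat-) and 8.74 (Cat+) on the log2 scale with probe set 17669934, which is a fold change of 1.12. *Hey1*, a repressor of the related Hairy/E(spl) with YRPW motif family, read 7.42 (Cat-) and 7.70 (Cat+) with probe set 17737273, which is a fold change of 1.21. The difference of *Hes1* (0.16) was just under the probe set SD, and that of *Hey1* (0.27) was 1.57 times it. Both lay inside the range that held 90% of the 500 genes of nearest signal, which ran from -0.38 to 0.31 for *Hey1* and from -0.42 to 0.29 for *Hes1*. The probe set shared by *Rbpj* and *Rbpjl2* had log2 signals of 7.72 (Cat-) and 7.82 (Cat+), or a fold change of 1.07, and how far each gene contributes to it was not measured.

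RBPJ is the factor through which Notch acts on DNA, so the promoters of the members were read for its motif. The windows were the 250 bases before the annotated start from RefSeq (build GRCr8), which hold 9 of the 10 genes in 11 windows. *Hey1* has no entry in that table and was not searched, *Jag2* and *Rbpj* have a pair of windows each, and those of *Rbpj* overlap. The letters searched were TGGGAA on both strands and the longer GTGGGAA, which contains the former. TGGGAA was found in 4 of the 9 genes searched, *Hes1*, *Dll1*, *Dner* and *Rbpj*. By window this was 5 of 11, with a match of *Rbpj* counted in both of its overlapping windows, and 22.1% of 33469 windows of all genes held it. GTGGGAA was found in 2 of the 11, those of *Hes1* and *Dll1*, and in 5.27% of all windows. The windows of *Hes1* and *Dll1* are shown as those with the longer motif, and that of *Dner* because *Dner* was the gene past the size rule. Each is printed 5′ to 3′ on the strand of its gene, and capitals mark TGGGAA or GTGGGAA and their reverse complements.
Hes1, GRCr8 chr11:84213046-84213295, minus strand: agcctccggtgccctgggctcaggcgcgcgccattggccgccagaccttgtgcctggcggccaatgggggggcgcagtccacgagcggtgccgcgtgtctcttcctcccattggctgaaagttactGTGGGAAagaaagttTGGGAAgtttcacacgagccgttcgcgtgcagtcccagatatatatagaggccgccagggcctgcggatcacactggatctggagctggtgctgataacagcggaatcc
Dll1, GRCr8 chr1:64993275-64993524, minus strand: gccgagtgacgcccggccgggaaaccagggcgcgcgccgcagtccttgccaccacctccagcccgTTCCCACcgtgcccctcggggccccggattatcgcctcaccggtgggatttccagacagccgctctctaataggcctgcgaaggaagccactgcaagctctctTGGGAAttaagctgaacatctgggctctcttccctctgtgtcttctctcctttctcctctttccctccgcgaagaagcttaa
Dner, GRCr8 chr9:93350569-93350818, minus strand: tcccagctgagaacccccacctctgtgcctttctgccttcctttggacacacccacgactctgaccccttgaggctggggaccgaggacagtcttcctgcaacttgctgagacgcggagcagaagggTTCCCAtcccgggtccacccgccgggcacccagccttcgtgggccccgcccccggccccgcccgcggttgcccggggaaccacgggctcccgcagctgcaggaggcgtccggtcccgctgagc

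In the *Hes1* window, GTGGGAA began at position -124 and a further TGGGAA at position -109, both on the strand of the gene, where -1 is the last base before the start. In the *Dll1* window the longer motif lay on the opposite strand from position -185, and TGGGAA lay on the strand of the gene from -82. The *Dner* window held TGGGAA once, on the opposite strand, from -123. *Hes1*, with a pair of these matches, was at 1.12, *Dll1*, also with a pair, at 0.979 and *Dner*, with a single match, at 0.489. *Rbpj*, which also has matches, has only its shared probe set, at 1.07. The genes searched that held no match ran from 0.753 for *Jag2* to 1.01 for *Notch1*. A relation of matches to fold change was not tested. The letters CACNAG on both strands, an N box bound by HES repressors, were in 3 of the 11 windows, those of *Hes1*, *Notch1* and *Notch3*, and in 37.2% of all windows. A match is a run of letters, and binding was not measured.

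Beyond the 9 genes, 55 of 65 other listed genes of the pathway were measured. None had a fold change under 0.5 or over 2, and none passed 1.5-fold in either direction, a size that 0.991% of all genes passed toward lower and 0.204% toward higher signal in Cat+. Of the 55 genes, 32 were lower and 23 higher, where 51.2% of all genes were lower. Their median fold change was 0.980 beside 0.997 for all genes. Differences of 39 of the 55 were smaller than the probe set SD.

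**Figure D3:**
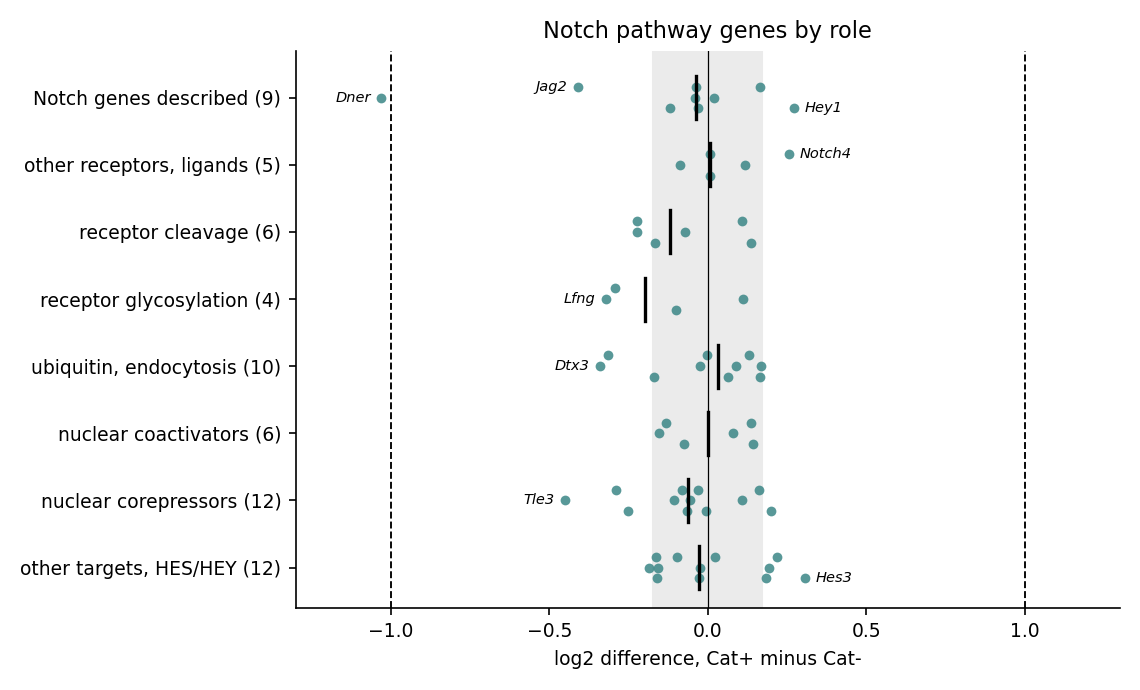
Log2 difference Cat+ minus Cat- (x axis) of each Notch pathway gene measured, by role (y axis, number of genes in brackets); points are genes, vertical bars the median of a role, the grey band the probe set SD of 0.17 on each side of 0, and dashed lines a 2-fold difference. Of all genes drawn, *Dner* alone lies past a dashed line, and *Tle3* (-0.45) is the lowest of the 55 others.

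Of 4 measured glycosylation genes, which add sugars to Notch and set its preference between ligands, 3 were lower in Cat+. For 2 of the 4 the difference was smaller than the probe set SD, as it was for 4 of 6 measured cleavage genes. *Lfng*, the Lunatic fringe enzyme, had log2 signals of 7.57 (Cat-) and 7.24 (Cat+), or a fold change of 0.800. *Mfng*, the Manic fringe enzyme, was at 0.816, with a Cat+ log2 signal of 5.48 that lies below the array median. *Pofut1*, which adds the fucose that fringe enzymes extend, was at 1.08. Of 6 measured genes for receptor cleavage, 4 were lower, with *Aph1a* and *Psen2*, subunits of gamma-secretase, at 0.856 and 0.857 and *Furin*, which cuts the receptor precursor, at 0.891. Of the noncanonical ligands that resemble Delta, *Dlk1* was at 1.08 and *Dlk2* at 0.942. Their log2 signals, from 5.63 to 5.77, lay near the array medians.

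Ubiquitin ligases and adaptors, which control the uptake of ligands and receptors, were split, with 5 lower and 5 higher of 10 measured. *Dtx3*, of the Deltex family, had log2 signals of 7.87 (Cat-) and 7.53 (Cat+), or a fold change of 0.791. *Neurl1b*, a Neuralized-type ligase that acts on ligands, was at 0.804, with a Cat+ log2 signal of 5.61 that lies below the array median. *Itch*, a ligase of the Nedd4 family, was at 0.888.

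In the nucleus, the 6 measured coactivators had 3 lower and 3 higher genes, and all 6 differed by less than the probe set SD. *Maml1* and *Maml2*, the Mastermind proteins that complete the active complex, were at 0.898 and 1.10, and the acetyltransferase *Kat2a* was also at 1.10. Of 12 measured corepressors, 9 were lower and 3 higher, and 8 of the 12 differed by less than the probe set SD. *Tle3*, a Groucho-type corepressor recruited by HES proteins, had log2 signals of 7.82 (Cat-) and 7.37 (Cat+), or a fold change of 0.731. *Bend6*, known in mouse as a corepressor of Rbpj, was at 0.818. *Spen*, which recruits corepressors to RBPJ, was at 0.840 by the brighter and 0.916 by the dimmer of its probe sets.

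Other targets and members of the HES and HEY families showed no common direction, with 7 of 12 lower and 5 higher. *Hey2*, the closest relative of *Hey1*, had log2 signals of 7.71 (Cat-) and 7.90 (Cat+), or a fold change of 1.14. *Bhlhe40*, a related repressor, was at 1.16. *Hes3* was at 1.24, with signals of 4.98 and 5.29 that lie below the array medians. *Heyl* was the lowest of the 12 at 0.880.

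Cell type markers moved in the same comparison and are given here beside *Dner* and *Jag2*. Of 14 listed fiber markers, 12 were measured, 11 were lower in Cat+ and 5 had a fold change under 0.5, with a median of 0.549 and a range from 0.0636 for *Lgsn* to 1.04 for *Cdh2*. *Prox1* and *Cdkn1c*, a transcription factor and a cell cycle inhibitor of early fiber cells, were at 0.965 and 0.967. The summed linear signal of the 12 genes, which the brightest of them dominate, was 19249 in Cat- and 9683 in Cat+. The study itself picked out several of these fiber genes on the same arrays. The part of fiber material in the values of *Dner* and *Jag2* was not tested.

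Neuron markers are given because *Dner* is abundant in neurons. All 7 were measured, with 3 lower and 4 higher and fold changes from 0.865 for *Stmn2* to 1.20 for *Map2*. Their summed linear signal was 1047 in Cat- and 1090 in Cat+. *Snap25*, a synaptic protein, had log2 signals of 8.11 and 7.91, and the microtubule protein *Map2* had 8.29 and 8.55. The part of neurons in the value of *Dner* was not tested.

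Several other lists were mostly higher in Cat+. Among lens epithelium markers, 7 of 9 measured were higher, with a median fold change of 1.10 and sums of linear signal of 19190 in Cat- and 20240 in Cat+. *Foxe3*, a transcription factor of the lens epithelium, was at 1.14, *Cdh1*, the epithelial cadherin, at 1.13 and *Pax6*, a transcription factor of eye development, at 1.12. *Itga6* and *Cryab* were lower, at 0.838 and 0.968. All 10 macrophage and leukocyte markers were higher, with a summed linear signal of 1231 in Cat- and 1734 in Cat+. Rod and cone markers were higher in 6 of 8 measured genes, with sums of 1600 and 2114. *Gnat1* (655 and 988) and *Sag* (504 and 689) dominate those sums, while *Opn1sw* and *Crx* were lower, at fold changes of 0.751 and 0.817. Of the Müller glia markers, 4 of 5 were higher, with sums of 4936 and 5234 that *Vim* (4403 and 4682) dominates. For 4 of the 5 the difference was smaller than the probe set SD. *Gfap* was below the array medians, at log2 signals of 5.58 and 5.60, and *Slc1a3* was lower, at a fold change of 0.874. Whether the *Vim* signal came from Müller glia was not tested. Pigment cell markers of the iris and ciliary body were higher in 5 of 6, with sums of 1697 and 1858. *Mitf* was lower, at 0.714, the largest difference of that list. Log2 signals on this array do not reach 0, so no marker is listed at 0. Cornea markers, with 4 of 6 measured, had fold changes from 0.959 to 1.03. The part of these cells in the values of *Hes1* and *Hey1* was not tested.

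**Figure D4:**
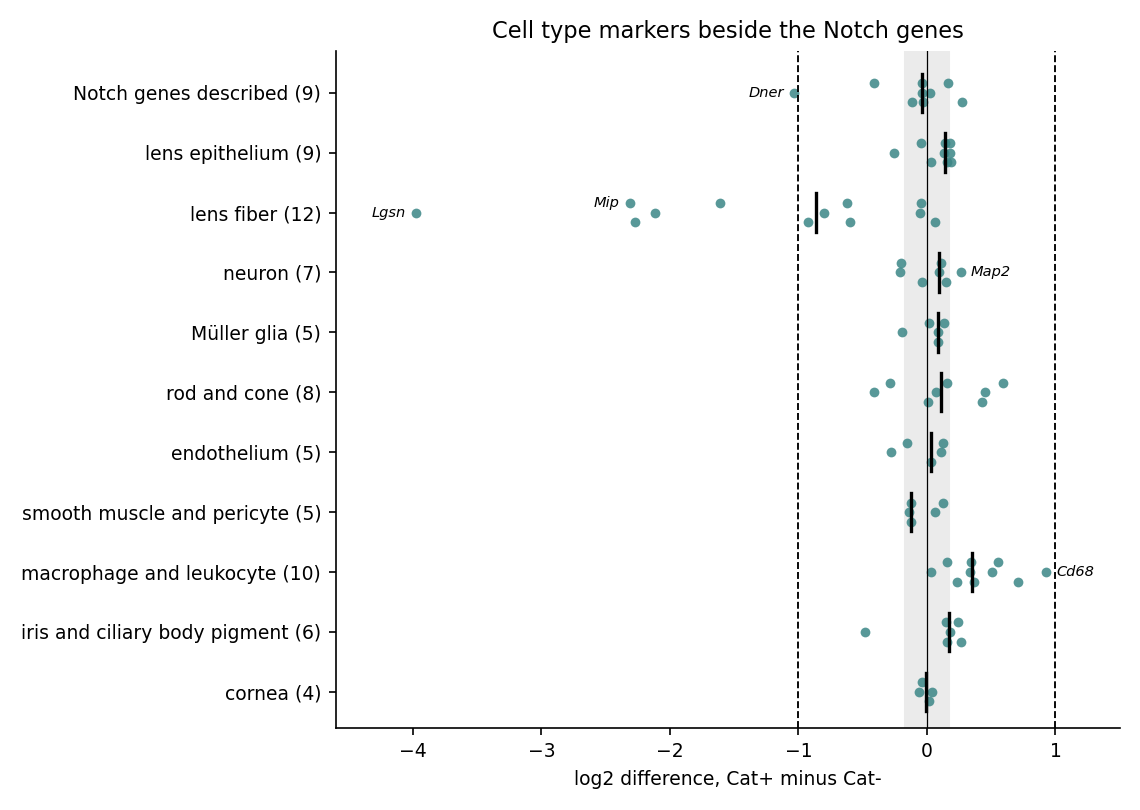
Log2 difference Cat+ minus Cat- (x axis) of the Notch genes and of the markers of each cell type (y axis, number of genes measured in brackets); points are genes, vertical bars medians, the grey band the probe set SD of 0.17 on each side of 0, and dashed lines a 2-fold difference. Fiber markers spread from 0.06 down to -3.98 for *Lgsn*, neuron markers lie between -0.21 and 0.26, and *Dner* lies at -1.03.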

How the data were processed

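LEC RNA of 1 Cat- and 1 Cat+ sample, each from 2 eyes, was measured on 1 array per sample. The log2 values deposited by the authors cover 29870 probe sets and were normalized within each array to a control or to its mean intensity. How background was corrected and probes were summarized is not given in the sources used here. Both columns were used as deposited. In the platform annotation 18511 probe sets have a single gene, 575 have several and 10784 have none; where a gene had several probe sets the brighter was taken, which gave 18166 genes. All 143 listed genes measured matched the RefSeq GRCr8 table by Entrez ID.

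With 1 array per group no test was run, and the number of arrays limits the precision. The members and lists were chosen with earlier results of these data known. Named are all members, up to 3 genes per pathway list with the largest differences, and markers beside a result. *Heyl*, *Snap25*, *Stmn2*, *Map2*, *Lgsn*, *Cdh2*, *Prox1*, *Cdkn1c*, *Cdh1* and *Pax6* were singled out after their values were seen. So were *Itga6*, *Cryab*, *Mitf*, *Gnat1*, *Sag*, *Opn1sw*, *Crx*, *Vim* and *Tyrp1*. *Nrl*, *Arr3*, *Gfap*, *Slc1a3*, *Aif1*, *Cd68* and *Lyz2* were chosen in the same way. The code that applies the size rule was checked on simulated data with planted changes, which says nothing of the spread between animals. Computation was in Python 3.11.15 with pandas 2.3.3 and NumPy 2.4.6, loess in statsmodels 0.14.6 and plots in matplotlib 3.10.9.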

Additional observations from a re-analysis of the deposited data

How the results depend on the processing

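The 9 alternative settings were 3 normalizations (median centring, quantile, and a loess curve of span 0.3), 3 treatments of low signals (dropping genes under the median or under the 20th percentile, and raising values to that percentile), and 3 ways to take probe sets (their mean, the one that differed most, and shared probe sets assigned to every gene named). Under quantile normalization the number of Notch genes past the size rule was 0 instead of 1, since the fold change of *Dner* became 0.501; it stayed at 1 under the other 8 settings. A threshold of 1.5-fold gave 1 gene and one of 3-fold gave 0. Over the 9 settings the fold change of *Dner* ran from 0.485 to 0.501, and the log2 difference of *Jag2* from -0.42 to -0.41, of *Hes1* from 0.15 to 0.19 and of *Hey1* from 0.26 to 0.30. The median of the Notch genes ran from -0.05 to -0.02 and that of the other pathway genes from -0.04 to -0.02. All 9 genes kept their direction, and none moved by more than the probe set SD. The spread between animals cannot be had from 1 array per group. No paired analysis was possible because each group has 1 sample.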

Other observations

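The genes whose pair of log2 signals lay nearest to that of *Dner* (8.40 in Cat- and 7.37 in Cat+) were *Tmem40*, *Nol3* and *Cox5b*, by Euclidean distance over the 2 samples. *Tmem40*, a transmembrane protein gene, stood at 8.50 (Cat-) and 7.40 (Cat+) on the log2 scale, or a fold change of 0.469. *Nol3*, an inhibitor of apoptosis, was at 8.45 and 7.49, a fold change of 0.514. *Cox5b*, a subunit of cytochrome c oxidase, was at 8.23 and 7.37, a fold change of 0.551. With 2 samples this likeness describes levels and a single difference. The probe set shared by *Aph1b*, a gamma-secretase subunit, and *Aph1bl2* had log2 signals of 6.36 (Cat-) and 6.46 (Cat+), or a fold change of 1.07.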
